A study of Mus musculus with 454 samples.

Results

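The collagen genes of the mouse were followed through neurons, glia and vessel-associated cells of the nodose ganglion, the ganglion that holds the cell bodies of vagal sensory neurons. All gene symbols made of Col, a number, the letter a and a number were taken, and nothing measured entered the choice. The rule found 44 genes, among 28001 genes in the droplet data and 36920 genes in the table of picked cells. By structure they were 11 fibrillar collagens, 9 fibril-associated collagens (FACIT), 6 chains of the basement membrane network of type IV, 6 chains of the beaded filaments of type VI, 4 transmembrane collagens, 3 short chain network collagens, 2 multiplexins and 3 others. In the GENCODE M21 annotation of the mouse genome all 44 gene identifiers had the same symbol as in the files.

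Single-cell transcriptomes came from nodose ganglia of wild-type C57BL/6 mice by a pair of methods. A single droplet library (10x Genomics, mice aged 6 weeks) held 1042 neurons and, in barcodes left outside the filtered cells, glia and other cell types. Single neurons of mice aged 8 to 12 weeks were picked and amplified one by one with Smart-seq2, which reads whole transcripts. The 3 picked cells with fewer than 2000 detected genes were left out. The deposited table gives most picked cells a mouse and a target code: Port (8 mice with at least 4 cells, and 1 mouse with 2 cells that was left out), GastG (5 mice), GastP (3 mice), IntL (3 mice), IntP (4 mice), IntM (3 mice) and IntD (3 mice). The labels spell out none of these codes, so they are used here as names only. A further 53 cells from 4 mice carried the code na and entered no comparison. No source used here says how the picked cells were marked or selected, and every group shared genotype, strain and ganglion.

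Collagens are triple helices of 3 chains, each chain being the product of a collagen gene. They are folded and hydroxylated in the endoplasmic reticulum, secreted, trimmed and cross-linked into fibrils, networks or filaments. In peripheral ganglia and nerves, fibroblasts lay down the fibrils, while Schwann cells, satellite glia (the glial cells wrapped around each sensory cell body) and vessel cells build basement membranes that contain type IV collagen. A type VI molecule is generally built from the Col6a1 and Col6a2 chains together with a further chain encoded by Col6a3, Col6a4, Col6a5 or Col6a6.

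The promoters of 3 neighbouring pairs of these genes are shown because the members of each pair are compared in the data below. Col4a1 and Col4a2 are transcribed away from each other from start sites 21 bases apart, so that their windows share 78 bases. Col6a5 and Col6a4 lie on the same strand of chromosome 9 with start sites 136048 bases apart, and Col6a2 and Col6a1 on the same strand of chromosome 10 with start sites 102640 bases apart. Each window runs from 250 bases before to 50 bases after the RefSeq start, in build GRCm38.p6, written 5′ to 3′ on the gene's own strand. Col6a2 has 2 listed windows, of which the first is shown. Capitals mark matches on either strand to a GC box, spelt GGGCGG. They also mark a CCAAT box and a TATA box, spelt TATAAA. In Col6a2 a pair of GC boxes overlap each other.
Col4a2 (chr8:11312555-11312854, plus strand): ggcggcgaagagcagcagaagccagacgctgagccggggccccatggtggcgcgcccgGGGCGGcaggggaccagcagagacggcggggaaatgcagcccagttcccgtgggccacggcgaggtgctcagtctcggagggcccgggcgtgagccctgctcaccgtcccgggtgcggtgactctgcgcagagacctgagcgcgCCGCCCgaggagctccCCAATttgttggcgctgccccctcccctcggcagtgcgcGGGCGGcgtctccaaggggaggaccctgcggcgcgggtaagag
Col4a1 (chr8:11312777-11313076, minus strand): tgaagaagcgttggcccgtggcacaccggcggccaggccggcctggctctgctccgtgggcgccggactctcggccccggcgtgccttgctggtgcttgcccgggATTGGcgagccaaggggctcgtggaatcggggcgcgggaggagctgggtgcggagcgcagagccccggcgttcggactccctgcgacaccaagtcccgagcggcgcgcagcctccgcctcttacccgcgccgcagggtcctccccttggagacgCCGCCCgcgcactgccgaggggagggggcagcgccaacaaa
Col6a5 (chr9:105960594-105960893, minus strand): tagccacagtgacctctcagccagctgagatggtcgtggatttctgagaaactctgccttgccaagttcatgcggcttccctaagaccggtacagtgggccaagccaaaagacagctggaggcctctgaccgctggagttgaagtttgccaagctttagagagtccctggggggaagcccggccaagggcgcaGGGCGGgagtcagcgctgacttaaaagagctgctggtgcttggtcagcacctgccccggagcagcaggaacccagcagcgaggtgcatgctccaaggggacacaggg
Col6a4 (chr9:106096642-106096941, minus strand): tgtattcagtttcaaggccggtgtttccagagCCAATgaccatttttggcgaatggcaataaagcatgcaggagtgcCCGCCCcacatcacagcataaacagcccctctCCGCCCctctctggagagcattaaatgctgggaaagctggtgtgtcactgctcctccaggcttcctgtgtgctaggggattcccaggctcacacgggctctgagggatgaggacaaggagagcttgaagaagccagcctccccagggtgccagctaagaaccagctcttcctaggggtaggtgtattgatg
Col6a2 (chr10:76623355-76623654, minus strand): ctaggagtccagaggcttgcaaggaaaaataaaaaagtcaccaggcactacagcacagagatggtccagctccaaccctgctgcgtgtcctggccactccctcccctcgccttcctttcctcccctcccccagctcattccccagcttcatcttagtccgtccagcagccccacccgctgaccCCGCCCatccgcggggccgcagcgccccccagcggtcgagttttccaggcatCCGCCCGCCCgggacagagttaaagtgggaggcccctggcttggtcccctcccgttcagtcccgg
Col6a1 (chr10:76725995-76726294, minus strand): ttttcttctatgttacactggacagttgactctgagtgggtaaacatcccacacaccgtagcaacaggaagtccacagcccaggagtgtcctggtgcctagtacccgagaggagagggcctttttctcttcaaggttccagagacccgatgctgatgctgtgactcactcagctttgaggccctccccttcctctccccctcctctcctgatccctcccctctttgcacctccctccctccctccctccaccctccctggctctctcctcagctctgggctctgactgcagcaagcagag
No TATAAA was found in these 6 windows. The GC box occurred 3 times in Col4a2, once in Col4a1, once in Col6a5, 2 times in Col6a4 and 3 times in Col6a2, with no match in Col6a1. CCAAT occurred once each in Col4a2, Col4a1 and Col6a4. Of the 35 collagen genes with a listed window, 22 (62.9%) held GGGCGG, 12 (34.3%) CCAAT and 5 (14.3%) TATAAA, against 35.7%, 37.4% and 13.6% of all 32851 listed windows. A match describes letters only.

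In the droplet library each class of cells had its own set of collagens, and neurons had little of most of them. Levels are given as CPM, unique molecular identifiers (UMIs, tagged RNA molecules) of a gene per 1000000 UMIs of the class, with exact 95% Poisson intervals. The library is a single sample, so intervals cover counting error only and no test between classes was made. Summed over all 44 genes, collagens took 108.6 CPM in neurons (interval 106.1 to 111.1), against 1268 CPM in satellite glia, 1520 CPM in myelinating Schwann cells, 913.5 CPM in endothelial cells, 1946 CPM in mural cells and 17220 CPM in fibroblasts. The non-neuronal classes came from 966 barcodes with at least 1000 UMIs and Snap25, a neuronal marker, below 500 CPM. Satellite glia were the most numerous of the named classes and fibroblasts, with 18 barcodes, the fewest, and 4 clusters stayed unnamed. Of the 966 barcodes, 42 were also among the filtered cells. Satellite glia were named from 7 listed markers, although none of these was among the 10 genes of largest fold in its clusters. A further 45 filtered cells had neuronal genes together with endothelial ones and were left out of the neurons after their values were seen; their collagens came to 230 CPM. At that limit, 96 barcodes had Snap25 between 400 and 500 CPM and 72 had it between 500 and 600 CPM. Median depth was 57337 UMIs in neurons and 5430 UMIs in satellite glia. Defining markers were high in their own class: Fabp7, a fatty acid binding protein of satellite glia, had 11241 CPM in satellite glia, Cldn5, a tight junction protein, 3227 CPM in endothelial cells, Acta2, smooth muscle actin, 5559 CPM in mural cells and Dcn, the proteoglycan decorin, 30787 CPM in fibroblasts.

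**Figure D1:**
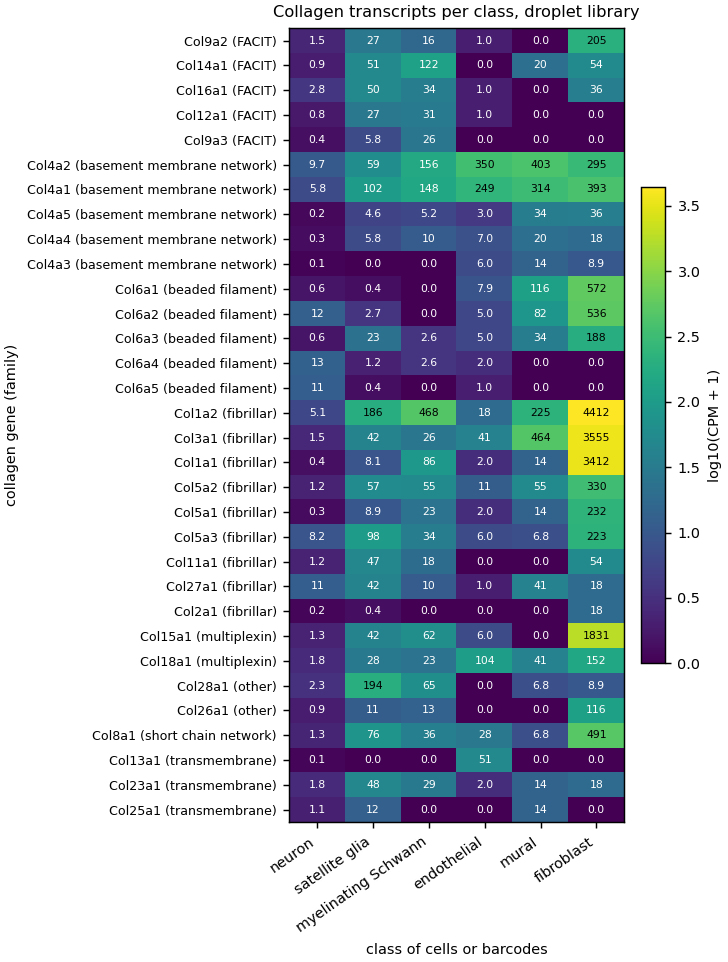
Collagen levels by cell class in the droplet library, as CPM (printed in each cell) with the colour on a log10(CPM + 1) scale. Each row is a collagen gene with its family and each column a class. The fibrillar genes Col1a2, Col3a1 and Col1a1 peak in fibroblasts and Col28a1 in satellite glia. Col6a4 and Col6a5 have 12.5 and 11.1 CPM in neurons and no UMI in fibroblasts or mural cells, where 3 counts would be 26.8 and 20.5 CPM.

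Fibroblasts were dominated by fibril genes. Col1a2 had 4412 CPM, Col3a1 3555 CPM and Col1a1 3412 CPM, the chains of type I and type III fibrils, and fibrillar genes made up 71.2% of the 1928 collagen UMIs of this class. Col15a1, a multiplexin that bridges fibrils and basement membrane, followed with 1831 CPM. Col6a1 (572 CPM), Col6a2 (536 CPM), Col8a1 (491 CPM) and Col4a1 (392.99 CPM) completed the 8 highest. Of the 44 genes, 19 had their highest level in fibroblasts, although a gene with no UMI there could still have up to 26.8 CPM (3 counts).

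Endothelial cells were led by the basement membrane network, while mural cells, the contractile cells around vessels, held fibrillar (42.1%) and type IV genes (40.7%) in like shares of their collagen UMIs. In endothelial cells Col4a2 had 350.5 CPM (interval 314.9 to 389.03) and Col4a1 249.2 CPM (219.3 to 282.03), and the type IV genes took 67.5% of collagen UMIs. Col18a1, whose fragment endostatin acts on vessels, had 104.25 CPM in endothelial cells. Col13a1, a transmembrane collagen, had 50.6 CPM (37.7 to 66.6) there and 0.121 CPM in neurons. The other named classes had no UMI of it, from far fewer UMIs than neurons, so the order below endothelial cells was not resolved. In mural cells Col3a1 had 464 CPM, Col4a2 402.9 CPM, Col4a1 314.1 CPM and Col1a2 225.4 CPM, followed by Col6a1 at 116.1 CPM and Col6a2 at 81.95 CPM. The interval of the ratio of mural to endothelial Col4a2 (1.15, from 0.857 to 1.52) spans 1.

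The glial classes shared genes but in different proportions. Satellite glia were highest for Col28a1, a collagen known from the basement membrane around Schwann cells in mouse nerve, with 194.06 CPM (177.5 to 211.8), against 64.97 CPM (42.05 to 95.9) in myelinating Schwann cells. Col1a2 stood at 185.98 CPM in satellite glia and at 468 CPM in Schwann cells. Satellite glia continued with Col4a1 (102.04 CPM), Col5a3 (98.2 CPM), Col8a1 (76.2 CPM), Col4a2 (59.3 CPM), Col5a2 (56.6 CPM) and Col14a1 (50.8 CPM). Schwann cells continued with Col4a2 (155.9 CPM), Col4a1 (148.1 CPM), Col14a1 (122.15 CPM), Col1a1 (85.8 CPM), Col28a1, Col15a1 (62.4 CPM) and Col5a2 (54.6 CPM). An unnamed cluster of 80 barcodes, with no marker of any list among its 10 leading genes, had 2506 CPM of collagen, of which Col1a2 made 799 CPM.

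Neurons carried a different profile, in which beaded filament genes held 34.3% and fibrillar genes 33.5% of the 7167 collagen UMIs. The rule for naming, at least 200 UMIs over all neurons, gave 9 genes. In order they were Col6a4 with 12.5 CPM (interval 11.7 to 13.4), Col6a2 with 12.3 CPM (11.4 to 13.1), Col27a1 with 11.3 CPM (10.5 to 12.1), Col6a5 with 11.1 CPM (10.4 to 12.0), Col4a2 with 9.67 CPM, Col5a3 with 8.17 CPM, Col4a1 with 5.82 CPM, Col24a1 with 5.67 CPM and Col1a2 with 5.07 CPM. Neighbours in this order had overlapping intervals, except Col4a2 over Col5a3 and Col5a3 over Col4a1. For 8 genes, a UMI was seen in at least 20% of neurons, led by Col6a2 in 45.97%, Col4a2 in 37.7% and Col6a5 in 35.1%. Those shares depend on depth: with each neuron thinned to 3000 UMIs, no collagen reached 20% and Col6a4, the highest, reached 3.65%.

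Of these 9 genes, 4 were higher in neurons than in satellite glia and 5 were lower. The neuron to satellite ratio was 28.96 for Col6a5 (exact interval 5.18 to 1145, from 736 UMIs in neurons and 1 in satellite glia) and 10.9 for Col6a4 (3.70 to 52.7, from 827 and 3 UMIs). It was 7.36 for Col24a1, a fibrillar collagen (2.02 to 60.97, with 2 UMIs in satellite glia), and 4.55 for Col6a2 (2.197 to 11.3, from 809 and 7 UMIs). The remaining ratios were 0.269 for Col27a1, 0.163 for Col4a2, 0.0832 for Col5a3, 0.0570 for Col4a1 and 0.0273 for Col1a2. Col28a1 lay at 0.0118. Against myelinating Schwann cells Col24a1 was not higher in neurons, with 7.80 CPM there and 5.67 CPM in neurons. The ratio of Schwann cells to neurons was 1.38, with an interval that spans 1 (0.283 to 4.05). RNA of satellite glia markers is also counted in neuron barcodes: 5 markers had ratios between 0.0117 and 0.0231 (Apoe, Fabp7, Ednrb, Cdh19 and Kcnj10), and Glul, glutamine synthetase, lay at 0.208. Col28a1 fell within the range of those 5 markers and Col1a2 just above it, while Col4a1, Col5a3, Col4a2 and Col27a1 lay higher. Whether the neuronal counts of Col1a2 and Col28a1 come from attached glia was not tested.

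**Figure D2:**
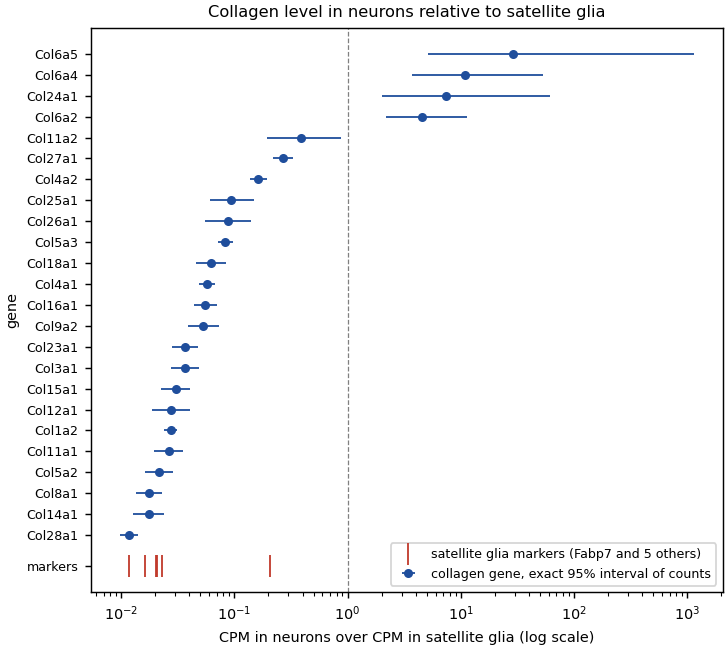
Ratio of each collagen's CPM in neurons to its CPM in satellite glia, on a log axis, with exact 95% intervals of the counts. Red ticks give the same ratio for 6 satellite glia markers. Col6a5, Col6a4, Col24a1 and Col6a2 lie above 1, and Col28a1 lies at 0.0118 among the markers.

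Free RNA, read from 326179 barcodes of 1 to 50 UMIs, held much neuronal RNA, with Snap25 at 1575 CPM in neurons and 1586 CPM in free RNA. Col6a4 had 22.1 CPM in free RNA from 12 UMIs, so neurons held 0.567 times that level (0.323 to 1.10). Col6a5 in neurons was 6.05 times its free RNA level (1.08 to 239.4), with 1 UMI in free RNA. Col6a2 was 1.66 times it (0.647 to 6.12) and Col24a1 1.03 times it (0.348 to 4.99). The share of barcodes with a UMI was 26.1% of neurons and 0.721% of satellite glia for Col6a4, and 35.1% and 0.240% for Col6a5, at the median depths given above.

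The chains of type VI were unevenly present in neurons. Col6a2 and the variable chains Col6a4 and Col6a5 each exceeded 11 CPM, while Col6a1 and Col6a3 both had 0.621 CPM (0.446 to 0.843), and Col6a6 had 0.0454 CPM from 3 UMIs. In fibroblasts Col6a1 and Col6a2 were close, at 572 CPM (440 to 730) and 536 CPM (408.95 to 690), with Col6a3 at 187.6 CPM and no UMI of Col6a4 or Col6a5. Satellite glia had Col6a3 at 22.7 CPM, Col6a2 at 2.70 CPM and Col6a1 at 0.385 CPM. In all, 7 collagens had their highest measured level in neurons: Col6a4, Col6a5, Col10a1 (0.682 CPM), Col7a1 (0.545 CPM), Col20a1 (0.136 CPM), Col6a6 and Col22a1 (0.0454 CPM). The last 5 are below the 1.16 CPM that 3 counts would give in satellite glia, so their rank could not be resolved at this depth. Col6a4 and Col6a5 were likewise below what 3 counts would give in fibroblasts (26.8 CPM) and mural cells (20.5 CPM), and the ratio of Col6a4 in neurons to the next class, Schwann cells with 1 UMI, had an interval of 0.863 to 190.6. Col4a6 had no UMI in neurons, which allows up to 0.0454 CPM.

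Neurons were divided into 27 clusters with no collagen gene among the genes used, and several collagens were concentrated in few of them. Col27a1 (chr4:63214004-63334991, plus strand), a fibrillar collagen known from cartilage, had 116.3 CPM (103.6 to 130) in the 54 neurons led by Rbp4, Vstm2b and Lamp5, where 96.3% of cells had a UMI and 41.2% of its neuronal UMIs lay. A second cluster led by Lamp5, Slc6a4 and Lhfpl3 had 94.4 CPM (79.3 to 111.5), against a median of 2.22 CPM over the 27 clusters. Col24a1 (chr3:145292472-145552011, plus strand) had 60.4 CPM (46.8 to 76.7) in 23 neurons with Prlr and Rbp2 among their leading genes and 39.7 CPM in 36 neurons led by Slc18a3, Pappa2 and Gm2990, against a median of 3.51 CPM.

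Col6a4 and Col6a5 shared their highest cluster, the 30 neurons led by Aldh1a3 and Car8, both next highest in 11 neurons led by Calb2, Cdh13 and Rspo1, which had Fabp7 at 1213 CPM. In the 30 neurons led by Aldh1a3 and Car8, Col6a4 had 58.4 CPM (46.8 to 72.02) and Col6a5 51.7 CPM (40.8 to 64.6), 10.5% of the neuronal UMIs of either gene. The neurons led by Sst and Ctxn3 had 34.5 CPM of Col6a4 and 15.2 CPM of Col6a5, and those led by Gpr65 had 5.11 CPM and 0.889 CPM. With coarser clustering the highest level of Col6a4 was 34.5 CPM and that of Col6a5 32.3 CPM.

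Col6a2 was the only named collagen with UMIs in all 27 clusters. It (chr10:76595762-76623630, minus strand) had between 2.08 and 76.6 CPM, with a median of 11.4 CPM, and its highest cluster held 12 neurons with 19 UMIs (46.1 to 120). With coarser clustering its highest level fell to 24.9 CPM. Col4a2 was highest in a cluster of 9 neurons led by Gata3, Nkx2-5 and Dach2, with 54.6 CPM (34.2 to 82.7). Col5a3 (36.98 CPM) and Col4a1 (23.1 CPM) were highest in the same 11 neurons led by Calb2, Cdh13 and Rspo1, and Col1a2 (24.4 CPM) in 57 neurons with Fabp7 at 1184 CPM.

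**Figure D3:**
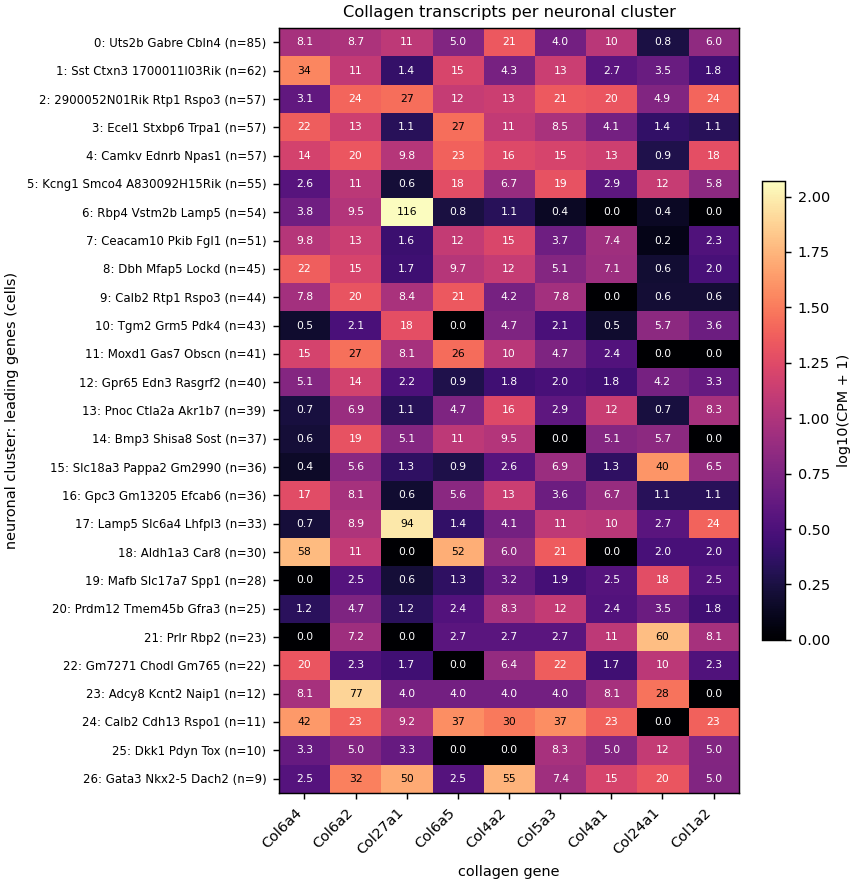
Levels of the 9 collagens with at least 200 UMIs in neurons, by neuronal cluster, as CPM (printed) with the colour on a log10(CPM + 1) scale. Clusters are named by leading genes with their number of cells. Col27a1 is concentrated in 2 clusters that share Lamp5, at 116.3 and 94.4 CPM, and Col6a2 is seen in all clusters.

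Fabp7, the satellite glia marker, was used to divide the neuronal clusters. The 15 clusters with Fabp7 below 100 CPM were compared with the 12 clusters above it. Col6a4 had 16.03 CPM in the low and 6.63 CPM in the high Fabp7 clusters, Col6a5 12.4 and 9.07 CPM, and Col6a2 12.7 and 11.5 CPM. Col28a1 had 0.676 CPM in the low and 5.001 CPM in the high Fabp7 clusters, Col1a2 1.69 and 10.8 CPM, and Col4a1 3.57 and 9.59 CPM. Col28a1 and Col1a2 were thus 0.135 and 0.157 times as high where Fabp7 was low. Of the other type VI chains, Col6a3 had 0.459 CPM in the low and 0.894 CPM in the high Fabp7 clusters (ratio 0.513, interval 0.263 to 0.993), and Col6a1 0.531 and 0.772 CPM, with an interval of the ratio that spans 1 (0.355 to 1.34). Col24a1, which was higher in neurons than in satellite glia, also had less where Fabp7 was low, at 2.90 and 10.3 CPM. The ratio was 0.281, with an interval of 0.224 to 0.350. The highest and the second highest cluster of Col24a1, at 60.4 and 39.7 CPM, both lay above the Fabp7 limit. Whole clusters were divided, so differences between neuron types cannot be told apart from differences that follow Fabp7. For none of these genes was the part of neuron type tested.

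The picked neurons were sequenced to a median of 1617516 reads. With 10 reads as the limit of detection, Col6a2 was seen in 79.96% of cells (exact binomial interval 75.95 to 83.56%). Col6a5 followed with 38.5%, Col6a4 with 37.9%, Col5a3 with 36.7%, Col4a2 with 33.2%, Col28a1 with 27.6%, Col4a1 with 24.3%, Col1a2 with 21.4%, Col24a1 with 19.6% and Col18a1 with 17.8%. Col6a1 was seen in 3.12% of cells. Per kilobase of the longest annotated transcript, mean levels were 6.63 CPM for Col6a2, 1.69 CPM for Col5a3, 1.42 CPM for Col28a1, 1.33 CPM for Col6a4, 0.938 CPM for Col6a5 and 0.927 CPM for Col4a2. No cell reached 10 reads for Col9a1, Col25a1, Col2a1, Col13a1 or Col4a6, where the exact interval reaches 0.818%. In the 4 mice coded na, Col6a2 was found in 75% to 86.7% of cells per mouse and Col6a4 in 12.5% to 40%.

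Picked cells also carried RNA of glial markers, and detection of some collagens followed it. At least 10 reads of Fabp7 were found in 40.3% of cells. Col28a1 was detected in 66.9% of the cells with Fabp7, against 1.12% (3 cells) of those without it. Col1a2 was found in 82 cells with and 14 cells without Fabp7, Col4a1 in 76 and 33, Col9a2 in 30 and 5, Col5a2 in 26 and 3, Col14a1 in 19 and 1, and Col8a1 in 18 and 0. The beaded filament genes Col6a2, Col6a5 and Col6a4 did not follow that split. Col6a2 was found in 81.8% of cells with and 78.7% without Fabp7, Col6a5 in 41.4% and 36.6%, and Col6a4 in 37.02% and 38.4%. The rarer chains Col6a1 (4.97% and 1.87%) and Col6a3 (3.87% and 1.49%) were found more often with Fabp7, with overlapping intervals. Col6a6 was found in 0% and 0.373%. Col24a1 was found in 15.5% of cells with and 22.4% without Fabp7.

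**Figure D4:**
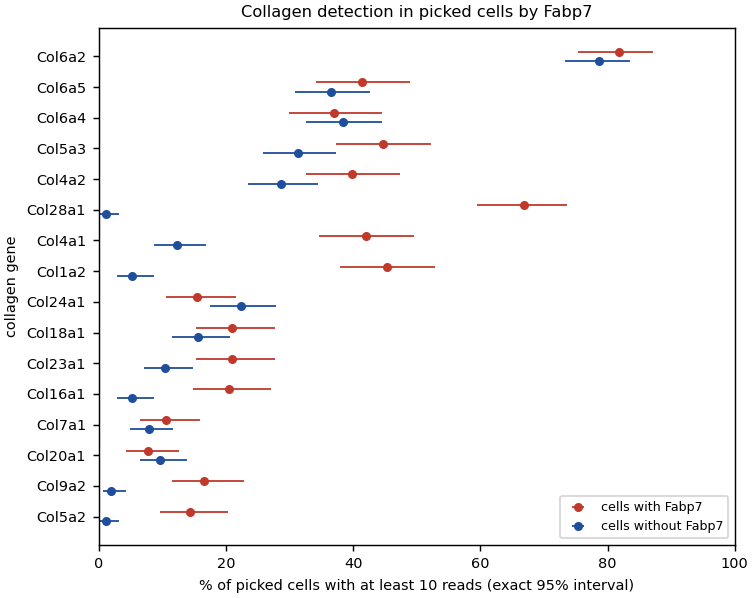
Share of picked cells with at least 10 reads of each collagen, in cells with Fabp7 (red) and without it (blue), with exact 95% binomial intervals. Col28a1 is found in 66.9% of cells with Fabp7 and 1.12% without, and the intervals of Col6a2, Col6a4 and Col6a5 overlap.

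Detection in the same cell followed the same lines, given as counts with no test because cells of a mouse share their source. Col1a2 and Col28a1 were found together in 68 cells, with 26.5 given by the product of their shares. Col4a1 and Col4a2, the divergent pair shown above, were found together in 70 cells, with 36.2 from the product, a ratio of 1.94. This was not particular to the pair: the ratio of Col4a1 was 2.06 with Col1a2 and 2.03 with Col28a1. It was 1.35 with Col5a3, 1.33 with Col6a5, 1.02 with Col6a4 and 0.987 with Col6a2. The Col4a1 and Col4a2 exons share 22 bases on opposite strands, and whether reads were counted by strand is not given. Col6a5 and Col6a4 were found together in 79 cells with 65.5 from the product, a ratio of 1.21. The ratio of Col6a5 was higher with Col4a2 (1.43), Col4a1 (1.33) and Col1a2 (1.22). It was lower with Col5a3 (1.15), Col28a1 (1.11) and Col6a2 (0.983). Col6a2 and Col6a4 were found together 0.993 times as often as the product gives.

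Target codes were compared over mice: for each mouse the mean of log2(CPM + 1) over its cells entered a limma fit across the 7 codes, in which 12696 genes with at least 10 reads in 5% of cells were tested and p-values were adjusted by Benjamini-Hochberg over all of them. Of the 44 collagens, 19 passed this filter. These levels mix neurons and any attached glia. A mean over cells also does not separate fewer expressing cells from less RNA per cell, and the share of expressing cells was not tested. The p-values set differences between codes against the spread of mice within codes. Whether mice of a code were handled together is not given, and an effect of handling could not be told apart from the code.

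Between the Gast codes and the Int codes, 3 of the 19 tested collagens differed, all higher in Gast: Col18a1, Col6a4 and Col6a5. They make 15.8% of those tested, against a background of 14.8% of all genes called in this comparison, so collagens were called about as often as other genes. Without the 4 mice of high injury transcripts described below, 6 were called: these 3, Col5a3 (difference 0.93), Col4a2 (-0.73) and Col4a1, where 15.8% of all genes were called. The median log2 difference was 0.15 over the 19 collagens and 0.07 over all genes. The 7 tested satellite glia markers had a median log2 difference of -0.02, and none passed the adjusted test in limma. The mean of their levels in a mouse lay between 1.83 and 5.15 in Gast and between 2.12 and 5.47 in Int mice.

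Col18a1 (chr10:77052178-77166548, minus strand in mm10), a multiplexin of basement membranes, had levels of 0.672 at the lowest, 1.43 at the median and 2.15 at the highest in 8 Gast mice, against 0, 0.764 and 1.37 in 13 Int mice. The ranges overlap, but the 3 GastP mice (2.04, 2.15 and 1.87) stood above every Int mouse. The log2 difference was 0.81 ± 0.18 (SE), with an adjusted p of 0.00195 in limma. It was called in each fit that left out a mouse, with differences of 0.73 to 0.88, and in edgeR.

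Col6a4 (chr9:105989454-106096783, minus strand), a chain of type VI, ranged over 1.88, 2.59 and 4.32 (lowest, median and highest) in Gast mice, against 0.647, 1.87 and 3.90 in Int mice. The ranges overlap: IntP mice 12, 16 and 17, at 3.08, 2.65 and 3.90, were above the other 10 Int mice. The log2 difference was 1.12 ± 0.32 (SE), with an adjusted p of 0.0171 in limma. Without GastP mouse 9 the adjusted p was 0.0563 (difference 1.05), and without GastP mouse 10 it was 0.0882 (0.88). In edgeR on summed reads it was 0.148. Exons of Col6a4 overlap those of the opposite-strand genes Gm47575 and Gm36993.

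Col6a5 (chr9:105856078-105960643, minus strand), the neighbouring chain, ranged over 1.36, 2.41 and 3.96 in Gast mice, against 0.607, 1.41 and 2.59 in Int mice. The 2 groups overlap in most of their range. The log2 difference was 0.94 ± 0.30 (SE), with an adjusted p of 0.0338 in limma. Leaving out any of 9 mice ended this call, with differences of 0.76 to 0.96: without GastG 7 the adjusted p was 0.0746, without GastG 8 it was 0.0615, without GastP 9 it was 0.0643, without GastP 10 it was 0.122, without IntD 19 it was 0.0603, without IntL 39 it was 0.0586, without IntM 15 it was 0.0648, without IntP 11 it was 0.0507 and without IntP 16 it was 0.0517. In edgeR the adjusted p was 8.8e-04.

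The next genes by p were not called. Col4a2 had a log2 difference of -0.67 ± 0.24 (SE, adjusted p = 0.0619 in limma), Col5a3, a fibrillar type V chain, 1.12 ± 0.41 (adjusted p = 0.0648) and Col1a2 0.54 ± 0.24 (adjusted p = 0.150). Single mice decided the side of the threshold for these as well. Col4a2 was called without IntD 19 (adjusted p = 0.0479), IntL 33 (0.0420) or IntM 20 (0.0333), Col5a3 without GastG 42 (0.0463), GastP 10 (0.0252), Port 27 (0.0325) or Port 47 (0.0494), and Col1a2 without GastP 9 (0.0222). The Col1a2 difference was 0.82 without GastP 9 and 0.30 without GastP 44 (adjusted p = 0.492), the mouse of the highest satellite glia marker level in Gast (5.15).

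The composition of neuron types differed between the codes. Each picked cell was matched to the droplet cluster it resembled most over genes other than collagens. Of the Gast cells 51 matched the cluster led by Sst and Ctxn3, against 4 Int cells, and 4 Gast cells matched the cluster led by Gpr65, against 58 Int cells. Col18a1 was detected in 31 of 81 cells of the Sst and Ctxn3 type and in 2 of 86 cells of the Gpr65 type. Col6a4 was detected in 50 of 81 and 19 of 86 cells of these types, and Col6a5 in 26 of 81 and 13 of 86. Within the Sst and Ctxn3 type, Col18a1 was detected in 18 of 51 Gast cells and 1 of 4 Int cells, and Col6a4 in 36 of 51 and 3 of 4, too few Int cells for a comparison. The part of cell type composition in the difference between codes was not tested.

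**Figure D5:**
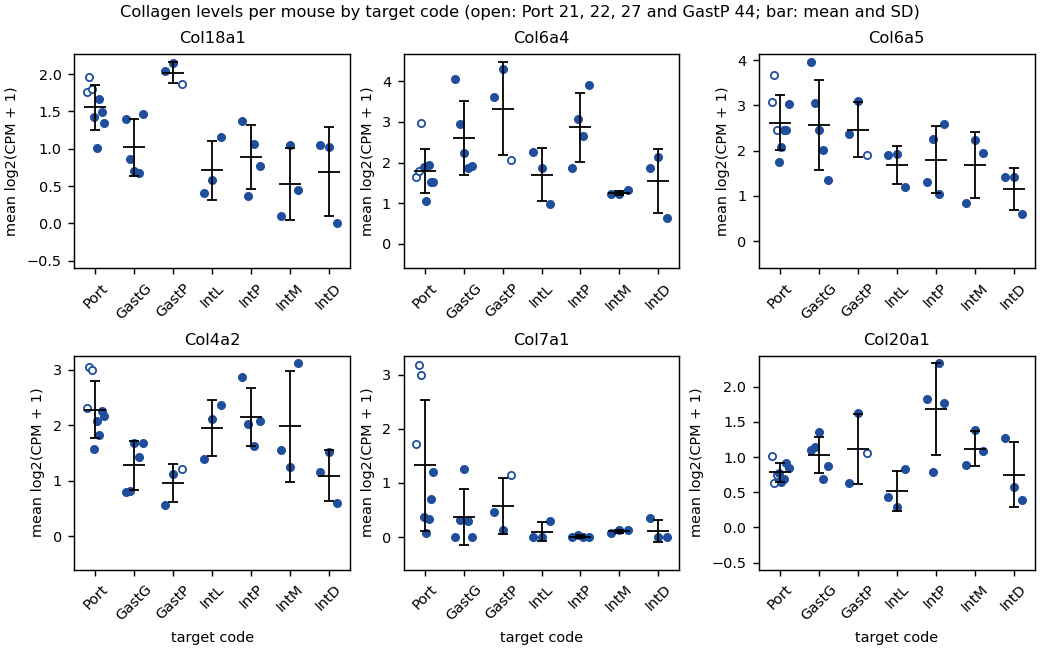
Mean log2(CPM + 1) per mouse for 6 collagens, by target code, with the mean and SD of each code as bars. Open points mark Port mice 21, 22 and 27 and GastP mouse 44, which had high injury transcripts. GastP mice lie at 1.87 to 2.15 for Col18a1, above every GastG and Int mouse, and Col7a1 is highest in the open Port points (1.71 to 3.18).

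Between Port and the mean of the Gast and Int arms (each code of an arm weighted equally), 2 of the 19 collagens were called, both higher in Port, against a background of 4.99% of all genes. Col4a2 (chr8:11312805-11449287, plus strand), a basement membrane chain, had levels of 2.31, 3.06, 2.99, 1.57, 2.07, 1.82, 2.26 and 2.17 in the 8 Port mice, against 0.57 to 1.69 in Gast and 0.607 to 3.13 in Int mice. The log2 difference was 0.82 ± 0.22 (SE), with an adjusted p of 0.0341 in limma. Its divergent partner Col4a1 had a difference of 0.47 and was not called (adjusted p = 0.213).

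Col7a1 (chr9:108953586-108984875, plus strand), the anchoring fibril collagen of skin, was at 1.71, 3.18 and 2.999 in Port mice 21, 22 and 27, between 0.0837 and 1.20 in the other 5 Port mice, and at no more than 1.26 in Gast and 0.352 in Int mice. The log2 difference was 1.04 ± 0.29 (SE), with an adjusted p of 0.0351. Port mice 21, 22 and 27 also had the highest means over 5 nerve injury transcripts (Atf3, Sprr1a, Ecel1, Gal and Npy). These means were 4.63 to 7.05, against 3.84 in GastP mouse 44 and 1.38 to 3.24 in the other Port mice. Atf3, Sprr1a and Ecel1 were each highest in these Port mice, but Npy and Gal were not. Npy was 0.102 in Port 21 and 0.280 in Port 22, against 1.00 in GastP 44. Gal was 3.51 in Port 27, against 4.70 in GastP 44. The mean of 7 satellite glia markers was 3.68 to 4.87 in Port mice 21, 22 and 27, against 2.46 to 3.73 in the other Port mice, and its part was not tested. Without these 4 mice, 0 of 19 collagens were called by limma, where 1.08% of all genes were: Col4a2 had a difference of 0.55 (adjusted p = 0.336) and Col7a1 one of 0.33 (adjusted p = 0.393). The part of the injury transcripts in these differences was not tested beyond leaving out those mice, and the mice were picked out with earlier results of these data known.

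Both Port calls also ended when any of 6 single mice was left out. Without GastP 9 the adjusted p was 0.0633 for Col4a2 and 0.0595 for Col7a1, without GastP 10 it was 0.0641 and 0.0731, without Port 21 it was 0.0587 and 0.0676, without Port 22 it was 0.114 and 0.120, without Port 27 it was 0.107 and 0.116, and without Port 53 it was 0.0514 and 0.0539. In the fits with 1 mouse fewer the differences stayed between 0.71 and 0.92 for Col4a2 and between 0.78 and 1.22 for Col7a1. The next collagens were Col18a1 (difference 0.44, adjusted p = 0.0999 in limma), Col9a2 (0.33, adjusted p = 0.134) and Col6a5 (0.58, adjusted p = 0.204).

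By matched type, Col4a2 was detected in 20 of 24 cells like the cluster led by Pnoc and Ctla2a, 20 of 26 cells like that led by Gpc3, and 3 of 81 cells like that led by Sst and Ctxn3. Port cells were spread over these types, with 13 in the first, 4 in the second and 18 in the third. Within the Gpr65 type Col7a1 was detected in 4 of 13 Port cells and in 0 of 58 Int cells, and within the Dbh type in 5 of 16 Port and 0 of 33 Int cells. These are counts over cells, several of which share a mouse. They are not divided by mouse, and no test was made.

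GastG and GastP did not differ in any collagen by the adjusted test, where limma called 0 of 12696 genes (a background of 0%), with 550 at an unadjusted p below 0.05 and 1 of these a collagen. In edgeR the count was also 0. That gene was Col18a1, with 1.40, 0.858, 0.702, 0.672 and 1.47 in GastG mice, against 2.04, 2.15 and 1.87 in GastP mice. The groups did not overlap, and the log2 difference was -1.001 ± 0.28 (SE, adjusted p = 0.790). Col6a2 (0.94) and Col6a4 (-0.72) followed, both with an adjusted p of 0.996 in limma. These rest on few mice: Col6a2 was at 0.51 without GastP 10, and Col6a4 was at -0.23 without GastP 10, -1.36 without GastP 44 and -1.09 without GastG 7.

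IntL against the other Int codes gave 0 collagens past the threshold in limma, against a background of 5.51% of all genes. An unadjusted p below 0.05 in limma was reached by 8 of 19 collagens and by 2509 of all 12696 genes. In edgeR 3 collagens were called. The median difference was 0.28 over the 19 collagens and 0.00 over all genes. Col9a2 (chr4:121039385-121055322, plus strand), a FACIT chain, was 0.788, 0.889 and 1.26 in IntL mice, against 0 to 0.665 in 10 other Int mice, without overlap (log2 difference 0.69 ± 0.21 SE, adjusted p = 0.0512). It was called without GastG 8 (adjusted p = 0.0455), GastP 44 (0.0424), IntM 26 (0.0483), Port 22 (0.0235) or Port 53 (0.0367). Col28a1 (chr6:7997808-8192617, minus strand) was 1.79, 1.24 and 3.27 in IntL mice, against 0.418 to 1.76 (difference 1.06 ± 0.44 SE, adjusted p = 0.170). Without IntL mouse 39, which had the highest satellite glia marker level, the Col28a1 difference was 0.47 (adjusted p = 0.657). Without the 4 mice of high injury transcripts, none of them an Int mouse, Col9a2 (adjusted p = 0.0123) and Col28a1 (0.0354) were called, where 8.8% of all genes were. The median difference of 7 satellite glia markers was 1.89, with 1 called, and their mean level was 3.43 to 5.47 in IntL mice, against 2.12 to 3.68 in the other Int mice. Their part in these differences was not tested.

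Col20a1 (chr2:180986535-181018363, plus strand), a FACIT collagen, had a difference of the opposite sign. It had 0.426, 0.285 and 0.832 in IntL mice, against 0.396 to 2.34 in the other Int mice (log2 difference -0.67 ± 0.24 SE, adjusted p = 0.106, and 0.0285 without IntP mouse 12). In the F test across the 4 Int codes it was the 1 collagen called (adjusted p = 0.0250 in limma), against a background of 9.85% of genes, and its levels were 1.83, 0.783, 2.34 and 1.77 in IntP, 0.888, 1.38 and 1.09 in IntM, and 1.27, 0.578 and 0.396 in IntD mice. Leaving out IntL 33, IntL 34, IntP 11, IntP 16 or IntP 17 took that count to 0, and leaving out Port 22 took it to 2. Exons of Col20a1 share 79 bases with the same-strand gene BX649560.1. Next in that test were Col9a2 (adjusted p = 0.0772), Col6a4 (0.118) and Col24a1 (0.138).

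Across all 7 codes the F test called 4 of 19 collagens (21.1%), against a background of 22.3%: Col18a1 (adjusted p = 0.00257 in limma), Col4a2 (0.02003), Col6a4 (0.0242) and Col20a1 (0.0303). Col9a2 (0.0516), Col5a3 (0.0629) and Col6a5 (0.0751) came next. Col6a2, the most widely detected collagen, was not called in any of these comparisons with all 29 mice, and was found in a mean of 75.04% of cells per Port mouse, 73.6% per Gast mouse and 86.9% per Int mouse.

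Genes that make, anchor, bind and degrade collagen were taken as 4 further lists, described here by counts. Of 30 genes of collagen making, 27 were tested, and 5 were higher and 0 lower in Gast than in Int: Pcolce2, an enhancer of procollagen trimming (log2 difference 1.02, adjusted p = 0.0266 in limma), Colgalt2, a collagen galactosyltransferase (0.60, 0.00226), and Mia3, P4ha1 and Plod3 (0.40 to 0.42). They make 18.5% of those tested, against the background of 14.8% of all genes. Without the 4 mice of high injury transcripts P4ha1 (0.42, adjusted p = 0.0740) and Plod3 (0.29, adjusted p = 0.114) were not called. Bmp1 was called as higher in Gast in that fit, which gave 4 of 27. The median over the list was 0.26, against 0.07 for all genes. In IntL, 3 (11.1%, against 5.51% of all genes) were higher than in the other Int codes: Serpinh1, the collagen chaperone HSP47 (1.22, 0.0171), P3h4 (1.18, 0.00225) and the cross-linking enzyme Loxl1 (0.57, 0.0342). In the droplet library all 3 were lower in neurons than in satellite glia, at 12.5 CPM and 333.5 CPM for Serpinh1, 7.62 and 50.8 CPM for P3h4, and 1.23 and 11.9 CPM for Loxl1.

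Of the 27 collagen-making genes tested, limma called none in Port, with 8 at an unadjusted p below 0.05, as were 2983 of all 12696 genes. Of 16 basement membrane partners 14 were tested, and 3 (21.4%, against 4.99% of all genes) were higher in Port: the laminin chains Lamb3 (0.77) and Lama5 (0.58) and agrin, Agrn (0.68). Of 15 genes of collagen breakdown 8 were tested, and 2 (25%) were called, the metalloprotease Mmp16 being higher (0.97) and Mmp15 lower (-0.67) in Port. Without the 4 mice of high injury transcripts none of these 5 was called, with differences of 0.31 for Lamb3, 0.30 for Lama5, 0.55 for Agrn, 0.37 for Mmp16 and -0.52 for Mmp15. In that fit 1 of the 27 collagen-making genes, Adamts14, was called as higher in Port. Lamb1 (1 of 14) and Mmp14 (1 of 8) were called there as higher in IntL than in the other Int codes. The shares of all genes called in that fit are given above. Of 11 receptors 5 were tested: Itgb1, the beta chain of collagen-binding integrins, was higher in Gast than in Int (0.76, adjusted p = 5.48e-05 in limma) and in Port than in the Gast and Int codes (0.42, adjusted p = 0.0324), the second of which was not called without those mice (0.19, adjusted p = 0.296). Each is 1 gene of 5 (20%), against backgrounds of 14.8% and 4.99%. Lama4, a laminin chain (0.63), and Timp2, a metalloprotease inhibitor (0.53), were also higher in Gast than in Int, 1 of 14 (7.14%) and 1 of 8 (12.5%) of their lists. Lama4 was not called there without the same mice (0.57, adjusted p = 0.0588). In the droplet library 19 of the 30 collagen-making genes were highest in fibroblasts.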

How the data were processed

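Messenger RNA was measured in 1 droplet library and in 453 singly picked cells of mouse nodose ganglia. The deposited droplet matrices hold UMI counts made by the authors with Cell Ranger 2.0.1 on mm10, per the submitters' processing notes, without further normalization. The deposited table of picked cells holds log2 values of reads, where -5.64386 stands for 0 reads, and a fraction of 0.941 of the values above it came back as whole reads within 1 part in 1000. Its header lines give mouse and target code. The read aligner and any use of strand are not given in the sources used here. Of the table's columns 1 matched no sample and was left out.

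Picked reads were divided by each cell's total to give CPM, without UMIs. Cells with under 2000 genes were dropped (449 of 452 stayed), the mouse was taken as the replicate, and mice with under 4 cells were left out. Means of log2(CPM + 1) per mouse were fitted with limma 3.58.1 (R 4.3.3, trend, empirical Bayes) in 1 model of the 7 codes, without covariates. Two-sided p-values were adjusted by Benjamini-Hochberg at a threshold of 0.05 over 12696 genes. For limma, normal mouse values were simulated with the mean and fitted spread of each of 12696 genes, 200 of them changed. On these, limma recovered 90% of log2 changes of 1 for Gast against Int, 98% for Port, 61% for GastG against GastP and 68% for IntL, with 7 to 14 false calls. Reads of single cells were not simulated. edgeR 4.0.16 was the other tool.

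Droplet barcodes were clustered with scanpy 1.11.5 (Leiden, 1.5 for neurons and 1 for other barcodes), with named classes taken from marker lists (416 barcodes of satellite glia, 121 endothelial, 120 myelinating Schwann, 46 mural and 18 fibroblast). Of the picked cells 181 had at least 10 reads of Fabp7 and 268 did not. Doublets were not called; the cells of mixed neuronal and endothelial genes were set aside. Intervals (95%) and the limit of 3 counts cover counting error only. Picked cells were matched to neuronal clusters by 620 genes.

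The members, gene lists, injury list and tests were chosen with earlier results of these data known. The genes named were every tested collagen past the threshold and the 3 of lowest p below it in each comparison, every collagen with at least 200 UMIs in neurons, the 8 highest of each class and, of other lists, up to 2 genes called at either end. Mia3, P4ha1, Plod3, Loxl1 and Lama5 fell outside this rule and were named after their values were seen. So did Bmp1, Crtap, Fkbp10, Adamts14, Lamb1 and Mmp14, named from the fit without the mice of high injury transcripts. Alternatives were the pseudocount, the filter on low values, the summary of a mouse, scaling, tool, mice used, detection limit, depth, UMI and Snap25 limits and clustering.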

Additional observations from a re-analysis of the deposited data

Results flagged for a closer look

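Among 42 groups of 4 to 10 mice, 4 had a mouse that stood apart from the rest of its code, where chance flags about 1 in 20 groups. IntP mouse 12 had a Col24a1 level of 0.845 (mean log2(CPM + 1)), against 0 to 0.137 in the other IntP mice. Port mouse 27 had a Col6a4 level of 2.97, against 1.06 to 1.94 in the other Port mice. GastG mouse 41 had a Col7a1 level of 1.26, against 0 to 0.317 in the other GastG mice. IntP mouse 12 had a Col7a1 level of 0.0420, where the other IntP mice were at 0, so that any level above 0 would have stood apart, and nothing is read from it.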

How the results depend on the processing

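The counts of collagens called moved with the choice of mice more than with scaling. Counts are out of 19, except under other filters, and the share of all genes called moved as well. With mice numbered up to 39 only, 13 collagens were called across the 7 codes (4 with all mice), 5 in Gast against Int (3), 6 in Port (2) and 1 in IntL (0), where 38.8%, 16.4%, 28% and 7.15% of all genes were called. In that fit Port was made up of mice 21, 22 and 27 alone, the Port mice of high injury transcripts. Without the 4 mice of high injury transcripts, 6 were called in Gast against Int, 0 in Port, 2 in IntL and 3 across the Int codes (1 with all mice), against 15.8%, 1.08%, 8.8% and 16.2% of all genes. With edgeR 5 were called in Gast against Int, 3 in IntL and 0 across the Int codes, against 14.9%, 8.44% and 9.25% of all genes. A filter at 20% of cells left fewer than 19 collagens to test, so its counts are not lost calls alone. With it 2 were called across the 7 codes, 0 across the Int codes and 1 in Port (all genes 23.1%, 10.5% and 5.32%). With log2 of the mean CPM, 7 were called across the 7 codes, 2 across the Int codes and 2 in IntL (25.3%, 10.5% and 6.34%). Without the filter beyond 10 reads in 1 cell more collagens were tested, and 2 were called across the Int codes and 2 in IntL (all genes 6.64% and 4.03%). With a pseudocount of 10 it was 2 and 1 (all genes 10.4% and 6.45%). With mice of at least 1 cell, 1 was called in Port (8.33%). Leaving out a mouse at a time gave 3 to 6 calls across the 7 codes, 0 to 2 across the Int codes, 2 to 4 in Gast against Int, 0 to 0 in GastG against GastP, 0 to 1 in IntL and 0 to 2 in Port, while the shares of all genes were 16.3% to 25.2%, 4.32% to 13.5%, 10.9% to 16%, 0% to 0.118%, 0.843% to 6.33% and 0.512% to 10.9% in the same order. The cause of these shifts was not tested. The count of collagens with a UMI in at least 20% of neurons was 0 with each cell thinned to 3000 UMIs, against 8. None of these results reversed. Of 974 values of single genes under the alternatives, 851 kept their side of the threshold or stayed within their error, 64 moved, 30 passed the threshold only under the alternative and 29 no longer passed it. Scaling by TMM factors moved the median log2 difference of all genes by less than 0.1. No paired analysis was possible because the labels give no replicate numbers shared across the codes. Depth limited the rarer collagens: in satellite glia a gene with no UMI could still have 1.16 CPM, and with 18 fibroblast barcodes 26.8 CPM.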

Other observations

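Matched neuron type divided the picked cells by collagen beyond the types described for the target codes. Col6a5 was detected in 15 of 16 cells like the cluster led by Camkv, Ednrb and Npas1 and in 17 of 22 cells like that led by Ecel1, Stxbp6 and Trpa1. In the droplet library these types had 23.2 CPM and 26.8 CPM of Col6a5. Col5a3, a type V chain, was detected in 58 of 81 cells like the cluster led by Sst and Ctxn3. Col6a4 was detected in 39 of 61 cells like the cluster led by Dbh and Mfap5, where droplet neurons had 22.3 CPM. Counts are over cells, several of which share a mouse, and no test was made.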
